A study of Homo sapiens with 9 samples.

Results

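A focal contact peak is a pair of genome bins that touch more often than every pair around them. Peaks were sought in Hi-C maps, genome-wide counts of DNA fragments that were ligated because they lay close together, in bins of 40 kb. The contact of a pair was its mean over growing libraries plus its mean over RIS libraries, with all libraries scaled to an equal total. A pair on chromosomes 1 to 22, 5 to 50 bins apart and with values in all 5 libraries, was a peak if its contact reached 30, if no pair within the surrounding 5 x 5 square exceeded it, and if it was at least 1.5 times the mean of the ring of 24 pairs at the edge of the 7 x 7 square, of which at least 12 had to have a value. This rule gave 11653 peaks among 2942691 pairs examined (0.396%), and 1017 peaks (8.73%) had an incomplete ring. Each pair consists of a left and a right anchor bin, and all coordinates are those of hg19, that is GRCh37.

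The cells were IMR90, a line of diploid human lung fibroblasts, at passage 20-25, and every library came from cells carrying ER:HRAS(G12V), an oncogenic HRAS fused to the oestrogen receptor that stays inactive until 4OHT is given. The 3 growing libraries received no 4OHT, and growing replicate 3 alone also carried an MSCV Vector. The 2 RIS (RAS-induced senescence) libraries came from cells given 100 nM 4OHT for 6 days. Capture Hi-C, which enriches a Hi-C library with RNA baits for chosen regions, gave 2 further growing and 2 further RIS libraries. The study calls its replicates biological, but the labels do not say what separated them, so p-values measure the spread between these libraries, which may be technical. Contact maps hold no expression, so the cell type could not be checked against marker genes.

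Focal peaks on such maps mostly reflect chromatin loops. In the usual account the cohesin ring extrudes a loop until it meets CTCF, a zinc-finger protein bound to a directional DNA motif, and CTCF stops cohesin best when the motifs at the loop ends point towards each other. Promoters and enhancers, and stretches held by Polycomb proteins, can also form focal contacts. On a larger scale chromatin divides into an active A and an inactive B compartment. Senescence is a lasting growth arrest that active RAS can set off in fibroblasts, and it comes with a secreted mix of cytokines, proteases and growth factors.

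The arrangement of the motif is easiest to see at single peaks. The following 4 peaks are examples with many contacts, but not the 4 with the most contacts among peaks of this arrangement. The left anchor of each held 1 match to the CTCF core on the forward strand and none on the reverse. The right anchor held 1 match on the reverse strand and none on the forward. The core is CCANNAG followed directly by GNGGC (N for any base). Each line gives 30 bases of the reference from 5′ to 3′ on the strand named, and the capitals mark the 12 bases of the core. The motifs of each pair point towards each other.
left anchor of the first peak, chr2:188446308-188446337, forward strand: catttccttCCACCAGGGGGCacttcattt
right anchor of the first peak, chr2:188708144-188708173, reverse strand: ttcctttatCCAGAAGGGGGCagcacatcc
left anchor of the second peak, chr7:78219211-78219240, forward strand: ttttaattaCCACCAGGAGGCcattagaaa
right anchor of the second peak, chr7:78557212-78557241, reverse strand: tagcataagCCACCAGGGGGCtatagttca
left anchor of the third peak, chr4:185185465-185185494, forward strand: tgtgaatggCCACAAGGGGGCgcgctgttt
right anchor of the third peak, chr4:185474725-185474754, reverse strand: gattcagccCCAGAAGGAGGCcttgctctg
left anchor of the fourth peak, chr15:81773079-81773108, forward strand: tataaatccCCACTAGGGGGCagtatttgc
right anchor of the fourth peak, chr15:82232111-82232140, reverse strand: ggaagggtgCCACTAGGTGGCagtagtttc

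The first of these peaks spans 240 kb and had 339, 453 and 436 contacts in the 3 growing libraries (replicates 1 to 3, the order kept from here on) against 205 and 360 in the 2 RIS libraries. The second spans 320 kb inside MAGI2, the gene of a scaffold protein of cell junctions, with 206, 248 and 234 against 147 and 189 contacts. The third spans 280 kb with 176, 192 and 186 against 133 and 163 contacts, and the fourth 440 kb with 160, 163 and 162 against 140 and 160. These are contacts before balancing and not corrected for depth, so they depend in part on the size of the libraries. None of the 4 passed the test for a difference between the conditions (voom, adjusted p of 0.30 to 0.98). In the same order they had 2.15, 2.06, 2.57 and 2.37 times the contact of their ring.

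The whole contacts behind the balanced values could be recovered by dividing out 1 factor per bin. They amounted to 154318992, 175410468 and 180775315 in the growing libraries, 109967509 and 150689993 in the RIS libraries, and between 69185449 and 171751603 in the capture libraries. RIS replicate 1 was the shallowest Hi-C library. The share of dangling ends in the study's alignment statistics also separates growing from RIS libraries, so dangling ends and condition cannot be told apart. Growing replicate 3 and RIS replicate 2 form a class with many duplicate reads, and differences within this class are given beside the comparisons of held-out strength by distance and compartment.

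Most peaks rested on many contacts. In 8252 peaks (70.8%) the means of recovered contacts of growing and RIS libraries together reached 30, and the other 3401 owed their balanced value in part to bins with little coverage. The median contact was 65.0, the highest was 993, and the median peak had 2.16 times the contact of its ring. Just inside and just outside the rule, the contact was 30.007 and 29.9998 and the ratio to the ring 1.5002 and 1.4996. Between 29 and 30 lay 391 pairs that met the other criteria, against 327 peaks between 30 and 31.

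Chromosome 2 held the most peaks, 1010, and chromosome 21 the fewest, 137. Peaks joined bins a median of 720 kb apart. There were 1259 peaks at 200 to 360 kb, 5006 at 400 to 760 kb and 5388 at 800 to 2000 kb. By compartment in growing cells, 4689 peaks had both anchors in A, 4255 both in B and 2594 an anchor in each, while 115 had an anchor with no compartment. Both anchors in A made up 40.2% of peaks but 31.2% of the pairs examined, both in B 36.5% against 33.2%, and mixed pairs 22.3% against 35.1%. Of the 1579094 pairs with a mean scaled value of at least 5, 474529 lay within A, 772164 within B and 325438 were mixed. Against the shares of these pairs, peaks had no excess within B and no deficit of mixed pairs. Peaks within B were longer, with a median of 920 kb against 640 kb within A, and lower above their ring, at 1.94 against 2.28 times. Mixed peaks had a ratio of 2.36. Peaks and compartments were taken from the same maps, so these shares are a description.

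Called from the means of each condition alone at a contact of 15, 5450 of the 8252 peaks with 30 recovered contacts (66.0%) were found within 1 bin in both conditions. Another 1008 were found in growing cells only, 1555 in RIS cells only and 239 in neither. The rule applied to each condition alone gave 13018 peaks in growing and 18370 in RIS libraries. Single libraries gave 25494, 23861 and 23074 peaks under growing conditions, against 30037 and 24091 for RIS. The shallowest library, RIS replicate 1, gave the most, and RIS replicate 2 lay within the range of the growing libraries, so these numbers do not measure the conditions. How far depth sets them was not tested.

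Averaging the maps around the peaks shows their shape. Each value was divided by the mean at its distance, giving observed over expected contact, and averaged over the 8252 peaks. The centre stood at 4.29, 4.26 and 4.28 in growing libraries and at 4.88 and 4.98 in RIS libraries. At the ring 120 kb away it had dropped to between 1.54 and 1.57 in growing and to 1.64 in both RIS libraries. Both RIS libraries were thus above all growing libraries at the centre and, by less, at the ring.

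**Figure D1:**
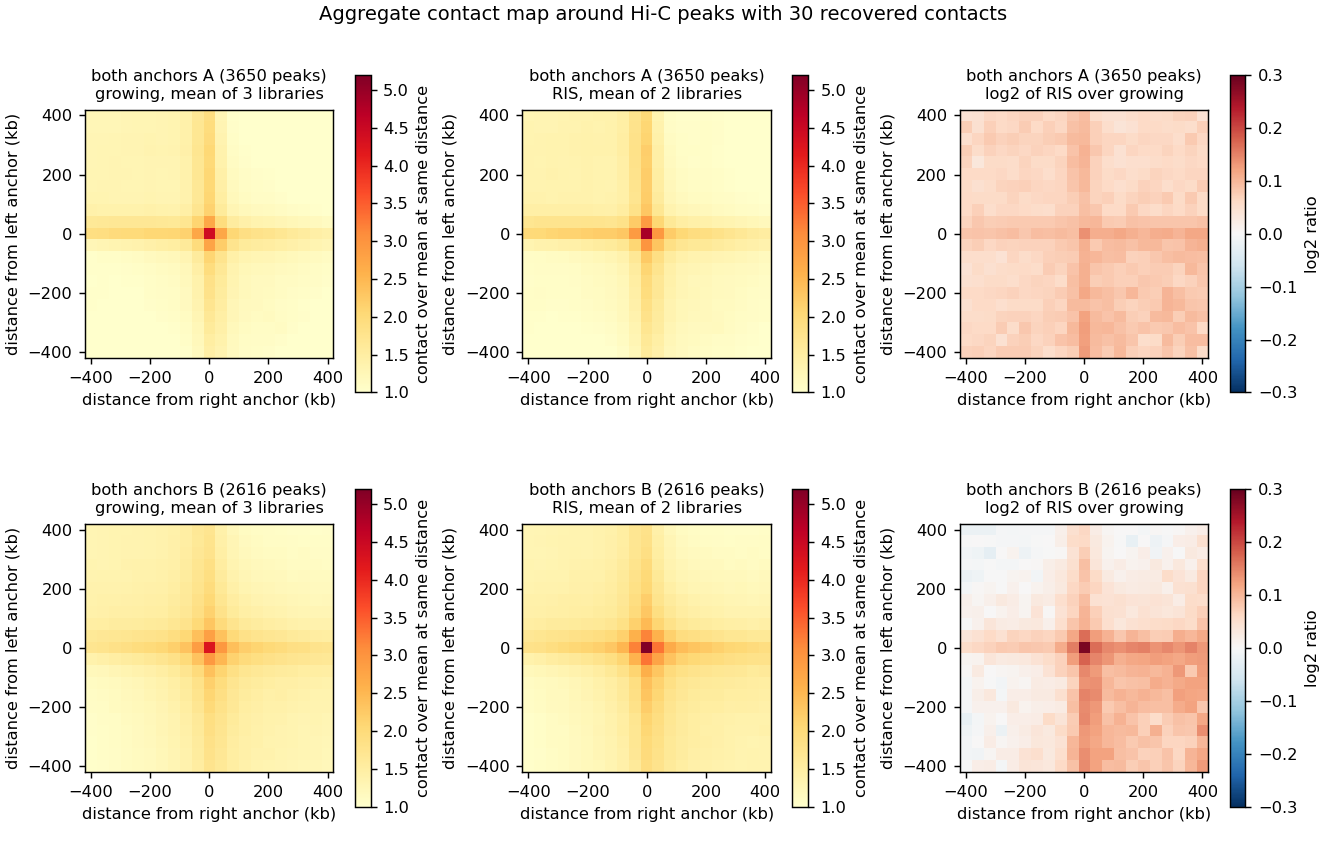
Mean observed over expected contact around 3650 peaks with both anchors in A (top) and 2616 with both in B (bottom), all with 30 recovered contacts, by offset of the left and right anchor in kb, in growing libraries, RIS libraries and as the log2 ratio of RIS to growing. The centre is the brightest pixel in every map, and in the ratio maps it rises further above its surroundings for B than for A.

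The same maps were split by compartment, as plotted in the aggregate maps. Peaks within A had a centre of 4.37, 4.42 and 4.46 in growing cells against 4.81 and 4.90 in RIS cells, and a ring of 1.46 to 1.49 against 1.55 to 1.57. Peaks within B had a centre of 4.34, 4.23 and 4.20 against 5.13 and 5.22, and a ring of 1.76 to 1.81 against 1.86 to 1.90. These libraries chose the peaks, so the maps are a description and carry no test.

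To compare the conditions on libraries that did not choose the peaks, the rule was run again 6 times, each time on the 3 libraries left after removing 1 growing and 1 RIS library. The 13891 to 16213 peaks of each run were measured in the 2 libraries removed. Strength was the log2 of the summed contact of the peaks over the summed mean contact of their rings, so that 1 is a doubling, and a library's value is the mean over its runs. RIS replicate 1 was thus measured only on peaks chosen with RIS replicate 2, and the reverse, while growing values average over both kinds of run. The spread between RIS libraries, and comparisons with 1 RIS library only, therefore mix library and set of peaks. The 2 were not separated. Peaks in held-out libraries had a strength of 1.06, 1.06 and 1.08 in growing cells, against 1.16 and 1.13 in RIS cells. Both RIS libraries lay above all growing libraries. Each run still chose peaks with other libraries of both conditions, so peaks that meet the rule through 1 condition stay in. Of all peaks, 2966 were found in RIS cells alone and 1596 in growing cells alone. How far such peaks make up the difference was not tested.

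Growing libraries averaged 1.07 ± 0.014 (SD, n = 3) and RIS libraries 1.14 ± 0.022 (SD, n = 2), a difference of 0.075 or 5.35% in the ratio to the ring (exact permutation test, two-sided, p = 0.1). With 3 libraries against 2, an exact permutation test cannot give a p below 0.1, so no comparison of this kind could pass 0.05. The difference was 0.040 when the centre was the mean of 3 x 3 pairs and 0.043 between growing replicate 3 and RIS replicate 2, the libraries with many duplicates.

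Strength was then split by the compartment of the anchors. Peaks within B had held-out strengths of 0.78, 0.76 and 0.76 in growing and 0.95 and 0.86 in RIS libraries, a difference of 0.138. Mixed peaks had 1.18, 1.16 and 1.21 in growing and 1.29 and 1.30 in RIS libraries, a difference of 0.111. In both classes the RIS libraries lay above all growing libraries. Peaks within A had 1.22, 1.22 and 1.26 in growing and 1.25 and 1.26 in RIS libraries, where the conditions overlapped and differed by 0.020. The difference within A was 0.035 without overlap when growing replicate 3 was left out and 0.012 without growing replicate 1. On observed over expected contact they differed by 0.039 and with the compartments of RIS cells by 0.038, both without overlap (exact permutation tests, p = 0.2). The exact permutation tests gave p = 0.1 for B and for mixed peaks (0.15 after adjustment over 6 classes) and p = 0.4 for A.

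The difference itself was tested between compartments. In each library the strength of B peaks minus that of A peaks was taken, and it was 0.117 higher in RIS than in growing libraries, with no overlap (exact permutation test, two-sided, p = 0.1). It was 0.069 without RIS replicate 1 and 0.166 without RIS replicate 2. On observed over expected contact it was 0.089 and the conditions overlapped (exact permutation test, p = 0.2). Within B the difference between the conditions was 0.094 without RIS replicate 1 and 0.181 without RIS replicate 2. Between growing replicate 3 and RIS replicate 2 it was 0.099 within B, 0.091 for mixed peaks and -0.0035 within A, and B minus A was 0.103. The RIS libraries were measured on different sets of peaks, so values that rest on 1 of them mix library and set of peaks.

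**Figure D2:**
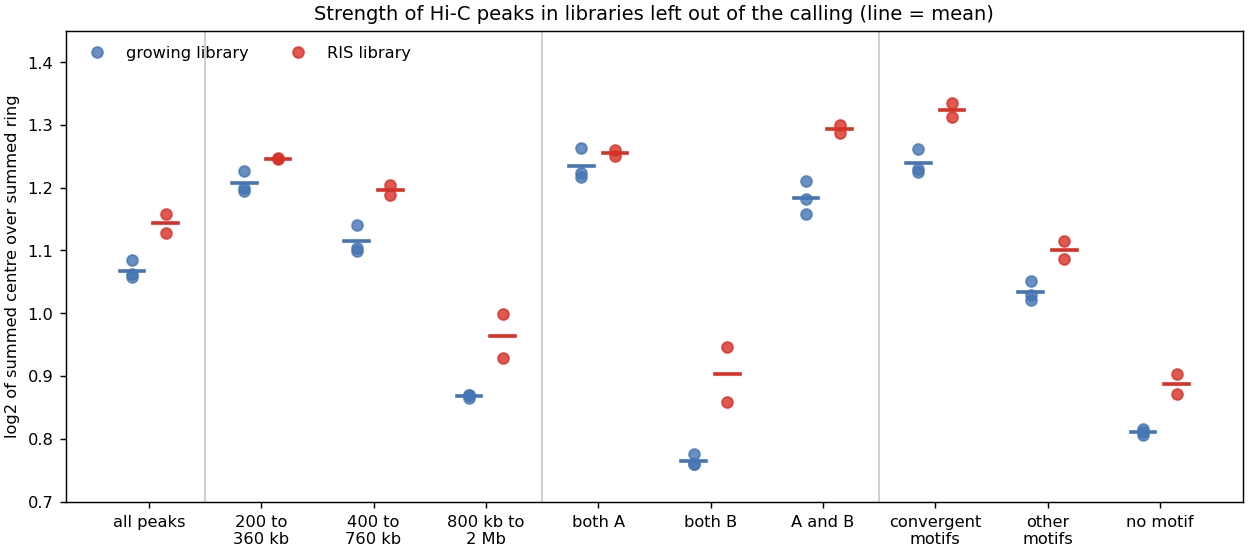
Held-out peak strength (log2 of the ratio of peak to ring) of each of the 5 Hi-C libraries for all peaks, 3 distance classes and 3 compartment classes; points are libraries and bars the mean of a condition. RIS libraries lie above growing libraries in every class except peaks with both anchors in A, where 1.25 and 1.26 fall among 1.22, 1.22 and 1.26.

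By distance, peaks at 200 to 360 kb had held-out strengths of 1.20, 1.20 and 1.23 in growing and 1.25 and 1.25 in RIS libraries. Peaks at 400 to 760 kb had 1.10, 1.10 and 1.14 against 1.20 and 1.19, and those at 800 to 2000 kb 0.87, 0.86 and 0.87 against 1.00 and 0.93. The longest peaks were the weakest in every library. The differences between the conditions were 0.040, 0.082 and 0.096 (exact permutation tests, p = 0.2, 0.1 and 0.1, adjusted over the 6 classes 0.24, 0.15 and 0.15). Between growing replicate 3 and RIS replicate 2, the libraries with many duplicates, they were 0.019, 0.048 and 0.060. For the longest peaks the difference was 0.061 without RIS replicate 1 and 0.131 without RIS replicate 2.

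The larger difference of longer peaks depended on the measure. The difference between the longest and the shortest class was 0.057 higher in RIS libraries, without overlap (exact permutation test, p = 0.1). It was 0.023 without RIS replicate 1, 0.090 without RIS replicate 2 and 0.041 between the libraries with many duplicates. It was 0.009 on observed over expected contact, where the conditions overlapped (exact permutation test, p = 1). Within A the difference between the conditions was 0.0003, 0.031 and 0.040 in the short, middle and long class, and within B it was 0.138, 0.149 and 0.121. It thus grew with distance within A but not within B, and this was not tested.

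Centre and ring were also followed apart, as log2 of observed over expected contact in the held-out libraries. Over all peaks the centre was higher by 0.147 and the ring by 0.056 in RIS libraries. Within B the centre was higher by 0.168 (exact permutation test, p = 0.1) and the ring by 0.040, with overlap (p = 0.3 by the same exact test). Within A the centre was higher by 0.111 and the ring by 0.071, both without overlap (exact permutation test, p = 0.1 each). Within A the ring accounted for more of the rise of the centre than within B, but this was not tested.

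Capture Hi-C libraries, which did not choose the peaks, were read at the same pairs. The study describes them as matching the Hi-C libraries, and whether they came from the same ligated samples is not given in the sources used here, so they may not be independent of the libraries that chose the peaks. The window of 7 x 7 bins lay wholly inside a captured region for 70 peaks in 28 of 61 regions, and the 10 kb values were summed to 40 kb. The median peak rested on 3574 and 2878 contacts in the growing capture libraries and on 2308 and 1452 in the RIS ones. Their strength reached 1.10 and 1.08 in growing cells, against 1.14 and 1.22 in RIS cells. Both RIS libraries lay above both growing libraries, by 0.086 on average (exact permutation test, two-sided, p = 0.33, the smallest that 2 against 2 allow), 0.126 without RIS replicate 1 and 0.046 without RIS replicate 2.

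In capture Hi-C too, the difference was smallest for peaks within A. The 47 peaks within A had capture strengths of 1.19 and 1.19 in growing and 1.20 and 1.29 in RIS libraries, the 15 within B 0.79 and 0.76 against 0.88 and 0.96, and the 8 mixed peaks differed by 0.198. The differences within A and B were 0.055 and 0.145, and whether they differ from each other was not tested. In Hi-C the same 70 peaks had strengths of 1.22, 1.25 and 1.27 in growing and 1.42 and 1.38 in RIS libraries. These Hi-C values are not held out, since the same libraries chose the peaks, so they are a description and no support for the capture values. The captured regions were picked by the study and do not sample the genome evenly.

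**Figure D3:**
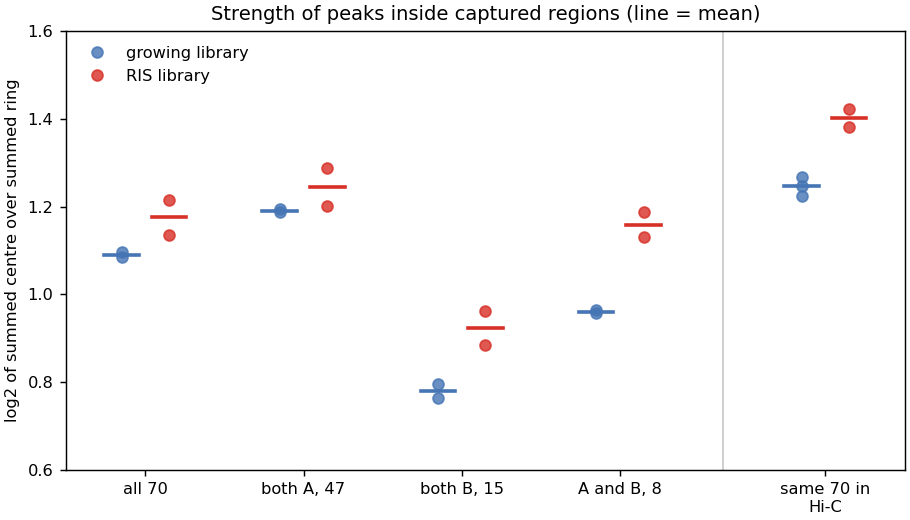
Strength (log2 of the ratio of peak to ring) of 70 peaks inside captured regions in each of 4 capture Hi-C libraries, over all 70, the 47 with both anchors in A and the 15 with both in B; points are libraries and bars the mean of a condition. In each set both RIS libraries lie above both growing libraries, least clearly for peaks within A.

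The anchors were searched for the CTCF core in the reference, on both strands. Among the 8252 peaks with 30 recovered contacts, 5.34% had the convergent arrangement, a forward match in the left and a reverse match in the right anchor, and 2.59% the opposite, divergent one. Of the pairs examined 2.55% were convergent and 2.54% divergent. The convergent share of peaks was 2.10 times that of the pairs, and the divergent share 1.02 times. The 3401 peaks with fewer contacts showed no such gap, with 5.23% convergent and 5.03% divergent. At least 1 match to the core is found in 26.3% of all bins, so a match is a description and not a bound site.

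The gap between the arrangements was seen with other spellings of the motif and at every distance. With CCANNAG followed by NNGGC, which matches 59.3% of bins, 26.9% of the 8252 peaks were convergent and 16.6% divergent, against 15.5% of pairs for each. With CCACNAG followed by GNGGCAG, which matches 1.72% of bins, 8 peaks were convergent and 1 divergent. These spellings overlap, as every match to the longest is a match to the others. For the core itself the convergent and divergent shares were 7.10% and 3.84% at 200 to 360 kb, 5.78% and 2.93% at 400 to 760 kb and 4.18% and 1.73% at 800 to 2000 kb.

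**Figure D4:**
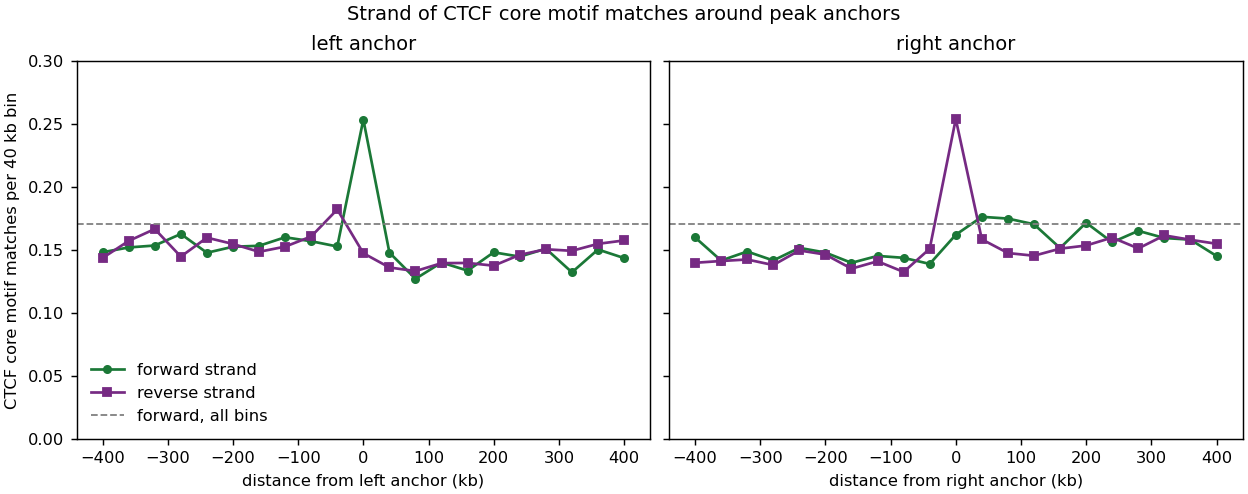
Matches to the CTCF core per 40 kb bin, by strand and by distance of the bin from the left anchor and from the right anchor of 8252 peaks. Forward matches reach 0.254 per bin at the left anchor and reverse matches 0.254 at the right anchor, while the other strand at the same anchor stays at 0.147 and 0.162.

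The excess sat in the anchor bins themselves, as the plot of matches by distance from the anchors shows. Forward matches numbered 0.254 per bin at left anchors and 0.162 at right anchors, reverse matches 0.147 at left and 0.254 at right anchors. Forward matches numbered about 0.170 per bin over all bins. The bin just outside the left anchor had 0.182 reverse matches.

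Peaks with the convergent motif stood higher above their ring. With the looser spelling, convergent peaks had 2.36 times the contact of their ring in held-out growing libraries and 2.50 times in RIS libraries, and peaks with no match at either anchor had 1.75 and 1.85 times. The log2 strength was higher in RIS libraries by 0.085 for convergent peaks and by 0.077 for those without a match. The 2 changes were 0.008 apart ( exact permutation test, p = 0.7, with the conditions overlapping and a pooled SD of 0.017 between libraries). Among convergent peaks the difference between the conditions was 0.034 within A and 0.166 within B.

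Anchors lay often at domain borders. A border was a local minimum of insulation, the mean contact across a position in a window of 520 kb. Both anchors were at a border in 15.4% of the 8252 peaks, against 2.59% of pairs examined, and at least 1 in 61.4% against 28.3%. Gene starts showed less of this, as both anchors held one in 7.39% of peaks and 5.91% of pairs. At 200 to 360 kb these shares were 10.9% and 6.91%, while at 800 to 2000 kb peaks had 5.04% and pairs 5.61%. Borders come from the same maps as the peaks.

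A few bins anchored many peaks, most of them to 1 side. The 8252 peaks with 30 recovered contacts used 10991 of 65957 bins, and 7397 of these anchored a single peak. Only these peaks are counted here and for the bins with many peaks named next. Among the 144 bins with at least 5 peaks, 52 had all partners to the right, 64 all to the left and 28 on both sides. Of the 52 bins facing right, 22 held the looser motif on the forward strand only and 6 on the reverse strand only. Of the 64 facing left, 9 held it on the forward strand only and 31 on the reverse strand only. Over all bins each share was 21.1%, so the strand of the motif followed the side of the peaks.

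A few of these bins were picked for display because they hold a gene start, although bins with at least 5 peaks to 1 side held one in 19.2% (right) and 21.9% (left) of cases, against 20.2% of all bins. The bin with ID2, an inhibitor of basic helix-loop-helix factors, anchored 7 peaks, all to the left, and that with NRP2, a semaphorin and VEGF receptor, 6 to the left. The bin with MEIS1, a homeobox factor, anchored 6 peaks, all to the right. Each of these 3 bins held a single match to the looser motif, shown here because its strand is that of the side: the core in capitals points towards the partners.
ID2 bin, chr2:8826049-8826078, reverse strand: tcgtgtcggCCAGCAGGTGGCgcccgggct
NRP2 bin, chr2:206540822-206540851, reverse strand: tcttgaaaaCCATTAGGGGGCagctgtgac
MEIS1 bin, chr2:66656320-66656349, forward strand: ttctattgtCCAGTAGACGGCacaaaagat

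Other bins with many peaks went the other way or held no match. The bin with EFNB2, an ephrin ligand, anchored 9 peaks to the left and held no match on either strand. The bin chr17:70520001-70560000 also anchored 9 peaks to the left but held 4 forward and no reverse matches. SOX4, a transcription factor of progenitor cells, had 6 peaks to the right and 2 to the left, with 1 reverse match. These bins were picked after their counts were seen.

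The peaks with the highest ratio to their ring mostly joined similar sequence. Of 48 peaks with a ratio of at least 10, 35 (72.9%) shared at least 1% of the 50-base words sampled in the left anchor with the right anchor on either strand. Among peaks with a ratio of 5 to 10 the share was 6.97%, and below 5 it was 1.24%. The highest ratio, 106, joined the bins of NBPF9 and NBPF12, members of a duplicated gene family on chromosome 1, where 24.7% of words were shared. A peak with a ratio of 31.0 joined CCZ1 and CCZ1B, near-identical gene copies on chromosome 7, with 37.2% of words shared. The peak chr16:360001-400000 with chr16:2000001-2040000, with a ratio of 60.5, shared 0.55%. Reads from copies of a sequence can be placed at either copy, so such peaks are uncertain as contacts. The other peaks named for their ratio joined HJV with NBPF12 (61.0, 24.2% of words shared), SVIL with chr10:30960001-31000000 (38.8, 12.1%), chr3:195360001-195400000 with RUBCN (37.4, 27.9%), TBC1D3G with chr17:36240001-36280000 (36.0, 64.9%) and OR4C12 with chr11:51520001-51560000 (34.5, 2.58%). The rings of these named peaks held 13 to 24 values, and 21 of the 48 peaks with a ratio of at least 10 had an incomplete ring. In all, 198 peaks (1.70%) shared at least 1% of words.

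Single peaks were then tested for a change between the conditions, together with the 1579094 pairs that had a mean scaled value of at least 5. All 11653 peaks were among them. limma on log2 balanced contacts called 7 pairs at an adjusted p up to 0.05 (0.000443%), all lower in RIS, and none of them was a peak, while 2688 peaks had an unadjusted p under 0.05. limma's voom, which weights the recovered contacts of each library by their precision and was planned as an alternative, called 3808 pairs (0.241%) and 271 peaks. Of these peaks 195 were higher in RIS (1.67% of peaks, against 0.181% of pairs) and 76 lower (0.652%, against 0.0605%). Peaks rest on more contacts, with a median of 141 in the 5 libraries against 61 for the pairs tested, so these shares do not compare pairs of equal depth. Without RIS replicate 1 voom called 22 peaks and without RIS replicate 2 it called 25.

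The called peaks were counted by compartment and distance, beside the same counts over all pairs tested. By voom 41 peaks within A were higher and 57 lower in RIS (0.874% and 1.22% of those peaks), against 870 and 474 pairs (0.183% and 0.0999%). Within B 88 peaks were higher and 9 lower (2.07% and 0.212%), against 927 and 274 pairs (0.120% and 0.0355%), and of mixed peaks 66 were higher and 10 lower (2.54% and 0.386%), against 1054 and 206 pairs (0.324% and 0.0633%). Within A more peaks were lower than higher while more pairs were higher, and in the other classes both leaned to higher values. At 200 to 360 kb 24 peaks were higher and 31 lower, at 400 to 760 kb 79 and 38, and at 800 to 2000 kb 92 and 7. Over all pairs these counts were 763 and 522, 949 and 347, and 1140 and 87. The share called lower dropped with distance, from 2.46% through 0.759% to 0.130% of peaks and from 0.164% through 0.0634% to 0.0122% of pairs, while the share called higher did not rise, at 1.91%, 1.58% and 1.71% of peaks and 0.240%, 0.173% and 0.160% of pairs. The contacts behind the peaks dropped along the same classes, with medians of 581, 177 and 97 in all libraries together. Peaks called lower rested on a median of 1226.5 contacts and those called higher on 226. None of these differences between classes was tested. The median log2 change in contact over all peaks, called or not, was 0.07 within A, 0.27 within B and 0.19 for mixed peaks (limma), against 0.05, -0.05 and 0.04 over the pairs tested. It was 0.37 for peaks below 30 recovered contacts and 0.10 for the others. Peaks within B rested on a median of 102 contacts, against 193 within A, and compartment was not separated from contacts here. The rule used these libraries with both conditions at equal weight, so the peaks' own values are a description. Of the 195 higher peaks 84 met the rule in RIS cells alone but not in growing cells alone, and of the 76 lower peaks 16 met it in growing cells alone but not in RIS cells alone.

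For local strength, the log2 ratio of a pair to its own ring, limma called 862 pairs (0.0546%) and 6 peaks. Of these peaks 4 were higher in RIS, against 0.00912% of pairs, and 2 lower, against 0.0455% of pairs. A share of 0.0515% of peaks is close to that of all pairs. Of the 6 peaks, 5 rested on 3 to 9 recovered contacts in all 5 libraries together. The sixth joins the bin of GADD45G, a stress-induced gene that restrains growth, with the bin chr9:92840001-92880000, 640 kb to its right. It had 102, 104 and 92 contacts in growing and 116 and 155 in RIS libraries, and a strength of 2.37, 2.40 and 2.24 in growing and 3.19 and 3.18 in RIS libraries. The strength differed by 0.85 ± 0.09 (SE; limma, adjusted p = 0.046), and under 6 of the other settings the adjusted p was 0.055 to 0.68. Contact was higher by 0.64 ± 0.13 on the log2 scale (voom, adjusted p = 0.011), and limma on balanced contacts gave an adjusted p of 0.35. Its compartment was B in growing and A in RIS libraries.

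The 5 called peaks that rest on few contacts had none in a whole condition, and 4 of them are given here. The peak joining TTBK1 and SLC29A1 had no contact in any growing library and 3 and 1 in RIS libraries. That from IGHV3OR16-17 to chr16:32200001-32240000 had none in growing libraries and 1 and 2 in RIS libraries, as had that between chr17:33120001-33160000 and chr17:34760001-34800000. The peak ending at TVP23A had 2, 3 and 2 contacts in growing and none in RIS libraries. A count of 0 allows up to 3 contacts in a library, and no library of these 4 peaks exceeded that, so no change of these peaks can be sized at this depth. The other 10 peaks among the 16 with the most extreme test statistics had adjusted p of 0.059 to 0.23 (limma).

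Among peaks with 30 recovered contacts, the fall with the most extreme test statistic was at NRG1, the gene of neuregulin, a growth factor that binds ERBB receptors, in contact with sequence beyond its 3′ end. The peak from chr8:32400001-32440000 to chr8:32960001-33000000 had 211, 190 and 237 recovered contacts in growing and 29 and 35 in RIS libraries. Every RIS library lay far below every growing library. Contact fell by 2.14 ± 0.20 on the log2 scale (SE; voom, adjusted p = 3.6e-13; limma on balanced contacts, adjusted p = 0.051). Its strength, 1.88, 1.73 and 1.97 in growing and 1.07 and 1.07 in RIS libraries, fell by 0.79 ± 0.13 (limma, adjusted p = 0.23). A peak remained in RIS libraries, with about 2 times the contact of its ring. A pair of neighbouring peaks shares an anchor with it, so the 3 are not independent. That from chr8:32160001-32200000 had 92, 93 and 124 contacts against 13 and 25 and fell by 1.85, and that to chr8:33200001-33240000 had 74, 92 and 87 against 14 and 20 and fell by 1.63 (voom, adjusted p = 2.9e-06 and 1.0e-04). These neighbours met the peak rule in growing cells alone but not in RIS cells alone, so they are peaks only through the condition in which they are high, and their p-values describe them and do not support the fall.

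A peak on chromosome 12, from chr12:89400001-89440000 to the bin starting at 89840001, which overlaps POC1B, a gene of the centriole, had 512, 531 and 567 contacts in growing and 205 and 301 in RIS libraries. All RIS values lay below the growing ones, and contact fell by 0.76 ± 0.08 (voom, adjusted p = 2.5e-10). The peak from the bin of STAT4, a transcription factor of cytokine signalling, to chr2:192360001-192400000, chosen after its values were seen, had 612, 748 and 744 against 293 and 401 contacts and fell by 0.68 ± 0.07 (voom, adjusted p = 1.1e-11). By limma on balanced contacts, the main test, their adjusted p was 0.14 and 0.16. Both peaks kept more than 3 times the contact of the ring in every library, since their strengths were at least 1.91.

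Among peaks that rose was that from chr14:92080001-92120000, which overlaps CATSPERB, to chr14:92360001-92400000, which overlaps FBLN5, the gene of an elastic fibre protein. It had 50, 49 and 57 contacts in growing and 72 and 132 in RIS libraries, a rise of 1.05 ± 0.17 (voom, adjusted p = 1.1e-04). The peak at UNC5B, a netrin receptor, had 63, 69 and 71 against 102 and 118 contacts and rose by 0.76 ± 0.15 (voom, adjusted p = 0.0062). The peak from chr20:23880001-23920000 to chr20:24880001-24920000 had 19, 20 and 18 against 30 and 47 contacts and rose by 1.37 ± 0.25 (voom, adjusted p = 0.0016). Its anchors shared 1.18% of the sampled 50-base words, above the 1% used for similar sequence, so it is uncertain as a contact. The peak from chr1:29680001-29720000 to chr1:30560001-30600000 had 40, 38 and 42 against 56 and 85 and rose by 0.92 ± 0.19 (voom, adjusted p = 0.0080), and its strength went from 0.91, 0.79 and 0.86 to 1.81 and 1.82 (limma, adjusted p = 0.084). The first 3 of these met the peak rule in RIS cells alone but not in growing cells alone, so they are peaks only through the condition in which they are high, and their p-values describe them and do not support a rise of peaks. In all 4 peaks both RIS libraries exceeded all growing libraries even before correction for their lower depth. By limma on balanced contacts, the main test, the adjusted p of these 4 peaks was 0.18 to 0.26.

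Lists of genes known for their part in senescence, fibroblast identity and loop formation were then looked up at the anchors. Over all peaks voom called 1.67% higher and 0.652% lower in RIS, so a list of few peaks holds few calls at these shares. Over all 19222 genes, 26.9% had a start in an anchor. Of 32 genes of the secretory phenotype on these chromosomes 10 had one, with 17 peaks, of which voom called 1 lower and none higher. Their median log2 change was -0.15, against 0.15 over all peaks, but 6 of the 17 peaks share the anchor of 1 gene, INHBA, and the median of the other 11 was 0.001. The median was 0.10 over all peaks with 30 recovered contacts, as 14 of the 17 had, and 0.065 over all peaks within A. The lists were not matched to other peaks by contacts or compartment. Of 31 cell cycle genes 7 had an anchor, with 9 peaks, none of them called and a median of 0.09. Of 27 genes of fibroblast matrix and identity 12 had an anchor, with 18 peaks, none called and a median of -0.12. AP-1 and inflammatory transcription factors gave 11 of 28 genes and 17 peaks, with 1 higher, none lower and a median of -0.08. The machinery of loops gave 4 of 12 genes and 8 peaks, none called and a median of -0.002, or 0.14 without the 3 peaks of PDS5A.

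Several peaks of a list fan out from 1 gene and share that anchor, so they are not independent. INHBA, the subunit of activin A, a secreted factor of the TGF-beta family, was the right anchor of 6 peaks at 680 to 1480 kb, all within A. Their log2 changes lay between -0.65 and -0.43. The shortest had 277, 346 and 338 contacts in growing and 141 and 164 in RIS libraries and fell by 0.65 ± 0.11 (voom, adjusted p = 0.00019). It alone passed the test with voom, and limma on balanced contacts, the main test, gave it an adjusted p of 0.40. Its strength, 1.46, 1.64 and 1.75 in growing and 1.40 and 1.27 in RIS libraries, differed by -0.28 ± 0.13 (limma, adjusted p = 0.69).

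PDGFRA, a growth factor receptor of fibroblasts, was the right anchor of 6 peaks within A, with changes between -0.18 and 0.10 and none called. The closest of these, at 320 kb, had 189, 236 and 222 contacts in growing and 157 and 196 in RIS libraries.

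**Figure D5:**
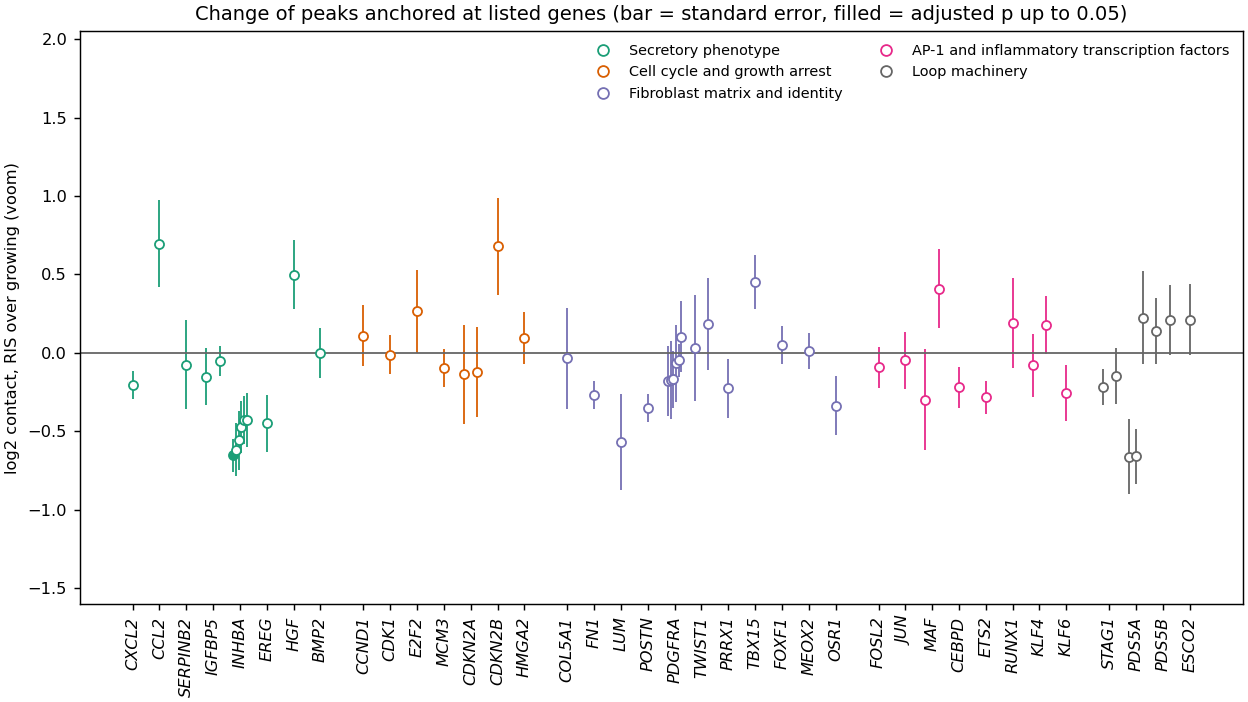
Log2 change in contact (RIS over growing, voom) with its standard error for peaks with 30 recovered contacts that have an anchor at a gene of the 5 lists; filled points have an adjusted p up to 0.05, and 1 gene is not shown. The filled point is a peak at INHBA (-0.65), and the 6 INHBA peaks all lie below 0.

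The other peaks named here from the lists did not pass, as the plot of listed genes shows. The peak of POSTN, the gene of a matricellular protein, had 314, 382 and 351 contacts against 173 and 261, a difference of -0.35 ± 0.09 (voom, adjusted p = 0.060). The peak of PDS5A, a cohesin regulator, to the bin of RPL9 and LIAS had 102, 113 and 108 against 47 and 56, a difference of -0.66 ± 0.17 (voom, adjusted p = 0.067). That of FN1, fibronectin, had 319, 348 and 305 against 213 and 228, a difference of -0.27 ± 0.09 (voom, adjusted p = 0.20). For the named peak of EREG, an EGF family ligand, it was -0.45 (adjusted p = 0.31) and for ETS2 -0.28 (adjusted p = 0.26), both by voom. Another EREG peak, with 56 contacts, had a difference of 0.70 and was not called. The peak joining CDKN2B, a cell cycle inhibitor, with DMRTA1 had 23, 9 and 24 contacts against 18 and 22, and was not distinguished between conditions (0.68, voom, adjusted p = 0.38). The peaks named at OSR1, STAG1 and E2F2 had changes between -0.34 and 0.57 with adjusted p of 0.47 to 0.75 (voom).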

How the data were processed

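HiC-Pro was the authors' aligner, with hg19 as the build. After filtering out artefact and duplicate reads, the authors deposited for each library ICE-balanced contacts (unit signal) for pairs of bins of 40 kb (Hi-C) or 10 kb (capture Hi-C), with bin numbers and their coordinates as other deposited columns. Balancing gives every bin about the same sum and can raise pairs of poorly covered bins above the contacts they rest on. Dividing by 1 factor per bin gave whole contacts, within 0.05, for all Hi-C values and at least 99.9% of capture values of up to 5 contacts. Above that the margin grew to 1% of the count, so for pairs with many contacts this check could not fail.

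Hi-C values were multiplied by 1.34, which brings the balanced total to the mean recovered total. Pairs were tested with limma on log2 values (pseudocount 0.5) after loess on abundance with a span of 0.3, an abundance trend and Benjamini-Hochberg adjustment over all pairs, on balanced contacts and on local strength. voom on recovered contacts was an alternative. Where a library was left out, the remaining single library of a condition was taken to vary like the others. For single values per library, permutation tests were exact and two-sided. Compartments were signs of a principal component in bins of 120 kb of the growing mean map. Borders were insulation minima at least 0.1 deep (log2), over 13 bins on each side.

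The peaks named were the 6 with the highest ratio to the ring, overall and, added after the data were seen, among those with 30 recovered contacts, the 8 highest and 8 lowest in the test of local strength, the 5 highest and 5 lowest in the test of contact, and in each gene list the 3 with the largest test statistic. Results for a listed gene, a called peak and a motif match are not reported here. Peaks and lists were chosen with earlier results of these data known. The tests of pairs by limma and voom were first run on simulated contacts with known changes, and the exact permutation tests were not. Over all pairs, at a median of 12.2 contacts per library, they found 11% to 29% of 2-fold changes. At simulated peaks, with medians of 43.2 and 43.4 contacts per library, they found 56% to 80.5%. Peaks with few recovered contacts were left out of this simulation. All peaks had a median of 141 contacts in all libraries together, so these shares cannot be read as those of all peaks. Alternatives covered the thresholds, ring, scaling, pseudocount, smallest value, trend, replicate block, motif, duplicate class and each library left out. Software was Python 3.11.15 with numpy 2.4.6, pandas 2.3.3 and scipy 1.17.1, and R 4.3.3 with limma 3.58.1. Gene starts came from GENCODE on GRCh37.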

Additional observations from a re-analysis of the deposited data

How the results depend on the processing

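Held-out strength was higher in RIS in all but 1 of 78 alternatives run for all peaks and for the distance and compartment classes. The exception was peaks within A, at -0.0035 between growing replicate 3 and RIS replicate 2. Most of these alternatives recombine the same values per library, by leaving out a library, by a block or by the duplicate class. Where both RIS values exceed all growing values, the direction of such alternatives was fixed in advance. Leaving out 1 library gave 0.060 to 0.091 for all peaks, 0.034 to 0.049, 0.074 to 0.095 and 0.061 to 0.131 for the distance classes, 0.012 to 0.035 for A, 0.094 to 0.181 for B, 0.098 to 0.124 for mixed peaks, 0.069 to 0.166 for B minus A, 0.023 to 0.090 for long minus short peaks and 0.046 to 0.126 for capture Hi-C. For held-out strength, leaving out a RIS library also changes the set of peaks behind the RIS value. Whether replicate numbers pair the libraries is not known. Between libraries of the same number, deviations of local strength from the group means correlated at 0.016 and -0.023 over 8252 peaks. With 2 RIS libraries these deviations mirror each other, so such values cannot exclude a pairing. With the replicate number as a block the held-out difference was 0.083 and the capture difference 0.086 (exact permutation tests, p = 0.5 each, the smallest that 2 pairs allow).

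Counts of calls depended on the setting. For contact, 7 pairs and 0 peaks became 41 and 2 with a pseudocount of 1, 999 and 3 without the trend, 614 and 48 with a trend on recovered contacts, 3808 and 271 with voom, and 9 and 1 with scaling only, which moves the median of all pairs to -0.13 on the log2 scale. It was 1 pair with a smallest mean of 10 or of 2, and 0 pairs with the replicate block or with centring at each distance. Without 1 library limma and voom gave 0 to 6654 pairs and 0 to 264 peaks. For local strength, 862 pairs and 6 peaks became 882 and 3 without the trend, 0 and 0 with the replicate block and 1536 and 29 with 3 x 3 centres. The pairs were 88 with a trend on recovered contacts, 354 and 365 with a smallest mean of 10 and 2, and 306 with a pseudocount of 1. Without 1 library it was 0 to 9304 pairs and 0 to 40 peaks. The cause was not tested.

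The rule gave 6245 peaks at a contact of 60, 6947 at 2 times the ring, 17590 on observed over expected values, 28325 on recovered contacts without balancing, 18370 in RIS alone, between 23074 and 30037 in single libraries (25494, 23861 and 24091 in growing replicates 1 and 2 and RIS replicate 2) and 12223 to 15544 without 1 library. The gap between convergent and divergent shares, 2.75 percentage points, was 10.3 with the looser and 0.085 with the longest spelling of the motif. Of 699 alternatives for named peaks 697 kept the direction. The peaks of FN1 and STAG1 turned to 0.026 and 0.022 with centring at each distance. In 3401 of the peaks the means of recovered contacts of growing and RIS libraries together stayed below 30. How far depth limits the calls of these peaks in particular was not tested. No exact permutation test of 3 against 2 libraries could pass 0.05.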
